A study of Mus musculus with 96 samples.

Results

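Conjugation attaches a large, polar group to a drug, a pollutant, a hormone or a breakdown product, which makes it soluble enough to leave the cell and then the body in bile or urine. In mammals most of this work is done by UDP-glucuronosyltransferases (UGTs), which add glucuronic acid, by glutathione S-transferases (GSTs), which add the tripeptide glutathione, and by cytosolic sulfotransferases (SULTs), which add sulfate. The liver is the main site of all these reactions, and it also has to make the donor molecules they consume: UDP-glucuronate, glutathione and the sulfate donor PAPS. The genes described here are the protein-coding genes of the UGT1 and UGT2 families, of the cytosolic GST classes alpha, mu, pi, theta, kappa, omega and zeta, and of the SULT family, taken by gene symbol. The rule found 63 genes among the 56748 genes of the count table, 21970 of them protein coding: 23 GST, 21 SULT and 19 UGT genes.

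The RNA came from liver, skeletal muscle and cerebral cortex of C57BL/6 mice with food at all times (ad libitum, AL) or with a daily fast of 16 h (intermittent fasting, IF), and it was read as poly-A selected, strand-directional libraries. Mice 1-16 were labelled male and mice 25-40 female, with 8 AL and 8 IF mice in each cohort and 1 library for each mouse and tissue. For males the methods give a start of the diets at 6 weeks of age and 4 months on them, with tissues taken in the morning after perfusion at the end of the fast. By the same methods their fast ran from afternoon to morning, so IF males had food only in the light phase. Fasting and the hour of feeding thus cannot be told apart. The regimen of mice 25-40 is not described there, so cohort, labelled sex and any difference in handling cannot be told apart. The comparisons ask which conjugation genes differ between IF and AL in each tissue, and whether that response differs between the cohorts or between tissues. Library totals ran from 26.1 to 44.8 M assigned counts in liver (median 36.1), from 28.3 to 49.8 M in muscle (median 36.7) and from 31.2 to 40.2 M in cortex (median 34.5).

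1 of the 96 libraries went against its label. The cortex library of AL mouse 1, labelled male, held 10219 counts of Xist, the RNA that coats the inactive X chromosome of female cells, and no count of 4 Y-linked genes. It was left out, so the cortex of AL mice 1-16 has 7 libraries; all 95 others matched the labelled sex. Defining markers of each tissue were present: hepatocyte markers summed to 49598 to 78028 CPM (median 55480) in the liver of AL mice 1-16, muscle fibre markers to 119240 to 127510 CPM (median 122900) in muscle and neuron markers to 5487 to 6776 CPM (median 6093) in cortex.

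Levels are in CPM, counts of a gene per M counts of its library, and levels of different genes are set side by side only per kilobase of exon (CPM per kb). Differences are log2 fold changes of IF over AL with their standard error (SE), fitted with edgeR on the whole table. The SE was derived from the log2 fold change and the F statistic of its test, as edgeR gives none, and is approximate. A gene is called here when its p, adjusted by Benjamini and Hochberg over all genes tested in that comparison, is under 0.05. Bulk tissue cannot tell fewer cells of a type from less RNA per cell, and this holds for each difference below.

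In the liver of AL mice 1-16, 36 of the 63 genes averaged at least 1 CPM: 20 GST, 10 UGT and 6 SULT genes. Per length, the mu-class enzyme Gstm1 stood first among the GSTs at 1823 CPM per kb, followed by the pi-class enzyme Gstp1 at 601 and the theta-class enzyme Gstt1 at 283 CPM per kb. Among the UGTs, Ugt2b5 averaged 379 CPM per kb, Ugt2b36 247 and Ugt2b1 111. Enzymes of the UGT2B subfamily glucuronidate steroids, bile acids and many drugs. Sult2a8, a bile acid sulfotransferase, led the SULTs at 256 CPM per kb, ahead of the phenol sulfotransferase Sult1a1 at 137 and of Sult1d1, which sulfates catecholamines, at 45.7 CPM per kb.

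Muscle and cortex held a narrower set. In muscle of AL mice 1-16, 15 GST and 2 SULT genes reached a mean of 1 CPM, and Gstm1 (129.7 CPM per kb), Gstp1 (103) and Gstm5 (63.3) had the highest levels per length. The leading SULT genes there were Sult1a1 at 8.46, Sult5a1 at 0.716 and Sult1e1 at 0.261 CPM per kb. In cortex 16 GST and 3 SULT genes reached 1 CPM. Sult4a1, a brain sulfotransferase with no settled substrate, had the highest level of all members there at 264 CPM per kb, above Gstm1 at 179, Gstm5 at 138 and Gstp1 at 83.7 CPM per kb. Sult1a1 and Sult2b1, a cholesterol sulfotransferase, followed among the cortex SULTs at 4.80 and 3.95 CPM per kb. No UGT gene averaged 1 CPM in either tissue: the highest per length were Ugt2b5 in muscle at 0.0309 CPM per kb and Ugt1a7c in cortex at 0.0543 CPM per kb.

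Many members lie side by side in the genome and resemble each other in sequence, which bears on how reads can be assigned. On GRCm39 the 7 mu-class genes lie together on chromosome 3, Gstp1 (ENSMUSG00000060803, chr19:4085407-4087985), Gstp2 (ENSMUSG00000038155, chr19:4090285-4096023) and Gstp3 (ENSMUSG00000058216, chr19:4107477-4109569) are neighbours, and the 9 Ugt1a genes on chromosome 1 have their own first exons and share the rest. Among 100-base stretches of the transcripts (GENCODE vM39), 35 of the 63 members shared under 1% with any other gene and 11 shared over 50%. The Ugt1a transcripts shared 52.3% to 77%. Gsta1 shared 80.7%, most of it with Gsta13, which the rule by symbol does not take in. Gstp2 shared 43.3% with Gstp1 and Gstp1 shared 23.8% with Gstp2, whereas Gstm7, Gstp3, Gstt1, Gstt2 and Sult2a8 shared none. Ugt2b38 shared 24.2% with Ugt2b5, and Sult2a2 and Sult2a5 shared 24.4% and 17.3% with genes of their cluster. How the deposited counts treat reads that fit several genes is not stated, so single values are those of the count table and may mix neighbours. This holds for the Ugt1a genes, Gsta1, Gsta2 (15.3% shared), Gstp1, Gstp2, Ugt2b5 (15.6% shared), Ugt2b38, Sult2a2 and Sult2a5.

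In the liver of mice 1-16, IF and AL differed in all 3 families. Called genes of the mu class all fell and those of the alpha class all rose, while the pi and theta classes held genes that moved in opposite directions. The 7 mu-class genes summed to 3168 ± 360.3 CPM (SD, n = 8) under AL and 1688 ± 363 CPM (SD, n = 8) under IF. The alpha class summed to 745 ± 141 CPM (SD, n = 8) under AL and 1175 ± 113 CPM (SD, n = 8) under IF, and the pi class to 978 ± 286 CPM (SD, n = 8) and 1784 ± 303 CPM (SD, n = 8). The sum of all 23 GST genes was 6408 ± 716 CPM (SD, n = 8) under AL and 6049.8 ± 724 CPM (SD, n = 8) under IF, a difference smaller than 1 SD. The SULT sum was 1202 ± 102 CPM (SD, n = 8) under AL and 868 ± 72.4 CPM (SD, n = 8) under IF, and the UGT sum 2147 ± 255 CPM (SD, n = 8) and 2161 ± 229 CPM (SD, n = 8). These sums carry no test.

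Of the 63 members, 40 passed the filter on low counts in this comparison, and 26 of the 40 were called, against 44.6% of the 16204 genes tested. Of the 26, 12 were higher under IF, against 23.5% of all genes tested, and 14 were lower, against 21.1%. A fold change of at least 2 was reached by 11 members, against 14.7% of all genes: 5 were higher, against 7.5%, and 6 lower, against 7.24%. In 9 members no IF mouse overlapped an AL mouse, against 14.6%: Gsta4, Gstp2 and Gstt2 were higher in every IF mouse, and Gstm1, Gstm6, Gstm7, Gstp3, Gstt1 and Sult2a8 lower. DESeq2 called 27 members, and 7664 of the 30675 genes it tested. With the level of erythrocyte genes as a covariate, 16 members were called, which is described with the marker genes further on.

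**Figure D1:**
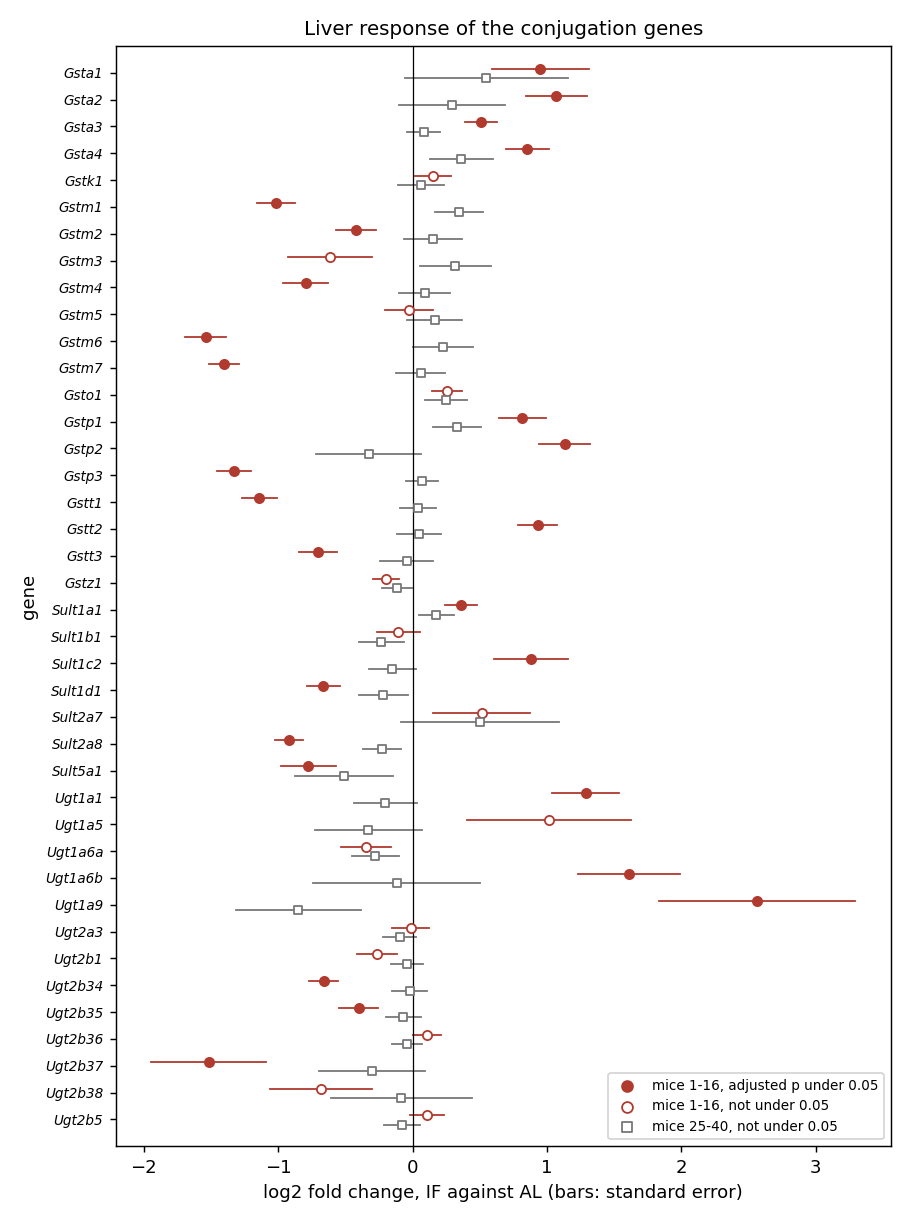
Log2 fold change of IF over AL in liver for the 40 members tested in mice 1-16, with bars of 1 SE. Filled red points have an adjusted p under 0.05 and open points do not; grey squares give the same contrast in mice 25-40, where no member was called.

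Enzymes of the mu class conjugate epoxides, quinones and many other electrophiles. Of its 7 genes, 5 were called lower under IF, against 21.1% of all genes tested. Gstm1 (ENSMUSG00000058135, chr3:107919571-107925289) had a lowest, median and highest level of 2327, 2681 and 3229 CPM in the 8 AL livers and 1151, 1326 and 2022 CPM in the 8 IF livers. The log2 fold change of Gstm1 was -1.01 (SE 0.14, adjusted p = 2.61e-06), and every IF liver lay under every AL liver. Gstm6 ran at 135, 163 and 203 CPM under AL and 42.2, 61.8 and 77.8 CPM under IF. Its log2 fold change was -1.54 (SE 0.15, adjusted p = 1.88e-08), again with no overlap between the groups. Gstm7 ran at 48.3, 70.4 and 76.6 CPM under AL and 23.8, 26.2 and 33.1 CPM under IF, and it fell with a log2 fold change of -1.40 (SE 0.11, adjusted p = 5.31e-10). The Gstm7 groups did not overlap either. Gstm4 ranged over 33.4 to 67.03 CPM (median 40.8) under AL and 18.00 to 37.9 CPM (median 25.1) under IF, with a log2 fold change of -0.80 (SE 0.17, adjusted p = 0.000481) and some overlap. Gstm2 fell by less, with a log2 fold change of -0.42 (SE 0.15, adjusted p = 0.0232), and its call was kept in 6 of 8 settings. Gstm3 and Gstm5, of the same cluster, were not called by edgeR, with log2 fold changes of -0.61 and -0.03; Gstm3 was called in 1 of 8 settings.

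The alpha class is known for conjugating and reducing products of lipid peroxidation. It had 4 genes called higher under IF, against 23.5% of all genes tested, while Gsta5 was called in 0 of 4 settings. Gsta4, which handles hydroxynonenal, a reactive aldehyde from oxidised lipids, had a lowest, median and highest level of 35.3, 44.2 and 54.8 CPM in AL livers and 58.4, 80.9 and 121 CPM in IF livers. With a log2 fold change of 0.85 (SE 0.16, adjusted p = 0.000145), Gsta4 was higher in every IF liver than in any AL liver. For Gsta2 the levels were 23.7, 37.1 and 62.3 CPM under AL and 61.6, 83.7 and 126 CPM under IF, and the log2 fold change was 1.07 (SE 0.23, adjusted p = 0.000869). The lowest IF liver lay just under the highest AL liver. Gsta3, the alpha gene with the most counts, had 481, 659 and 885 CPM under AL and 781, 1036 and 1102 CPM under IF, with a log2 fold change of 0.51 (SE 0.12, adjusted p = 0.00142) and overlapping groups. Gsta1 gave a log2 fold change of 0.95 (SE 0.36, adjusted p = 0.0404) at low levels, 1.40, 3.75 and 8.23 CPM under AL and 4.45, 7.34 and 22.6 CPM under IF. That call was kept in 4 of 8 settings, and most of the Gsta1 transcript is shared with other genes.

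The pi class split. Gstp1, the pi gene with the most counts, had 657, 866 and 1478 CPM under AL and 1354, 1719 and 2151 CPM under IF. It rose with a log2 fold change of 0.82 (SE 0.17, adjusted p = 0.000496), and the highest AL liver reached into the IF range. Gstp2 had 6.88, 9.86 and 17.6 CPM under AL and 18.3, 23.6 and 35.2 CPM under IF, with a log2 fold change of 1.13 (SE 0.19, adjusted p = 4.68e-05). Its groups did not overlap, but 43.3% of its transcript is shared with the far more abundant Gstp1. Gstp3 had 25.9, 37.5 and 42.8 CPM under AL and 11.3, 15.5 and 18.6 CPM under IF. It fell with a log2 fold change of -1.33 (SE 0.13, adjusted p = 9.48e-09), and every IF liver lay under every AL liver. Gstp3 shares no 100-base stretch with its neighbours, so its fall and the rise of Gstp1 are separate measurements.

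The promoters of the pi genes are shown because these neighbours moved in opposite directions. They are the 250 bases before each start, from RefSeq on GRCm38.p6, all on the minus strand: chr19:4037913-4038162 for Gstp1, chr19:4042222-4042471 for Gstp2 and chr19:4059448-4059697 for Gstp3. Capitals mark TGAGTCA, the AP-1 site TGACTCA read on the other strand.
Gstp1: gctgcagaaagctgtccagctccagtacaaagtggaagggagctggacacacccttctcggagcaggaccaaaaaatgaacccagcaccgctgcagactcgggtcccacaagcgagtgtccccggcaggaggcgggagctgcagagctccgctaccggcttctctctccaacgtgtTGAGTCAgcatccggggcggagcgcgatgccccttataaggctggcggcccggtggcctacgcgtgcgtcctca
Gstp2: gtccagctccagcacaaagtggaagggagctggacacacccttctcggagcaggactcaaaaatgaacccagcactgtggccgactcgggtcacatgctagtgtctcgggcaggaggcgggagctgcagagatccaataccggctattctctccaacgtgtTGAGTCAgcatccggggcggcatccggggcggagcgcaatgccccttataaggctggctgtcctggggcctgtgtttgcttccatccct
Gstp3: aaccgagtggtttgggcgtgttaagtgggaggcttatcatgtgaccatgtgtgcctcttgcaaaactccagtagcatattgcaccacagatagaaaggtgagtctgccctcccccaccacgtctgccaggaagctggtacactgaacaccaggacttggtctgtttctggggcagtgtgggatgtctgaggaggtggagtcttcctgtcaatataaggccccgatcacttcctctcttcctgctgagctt
The site begins 74 bases before the start of Gstp1 and 89 bases before that of Gstp2, and the window of Gstp3 does not hold these letters. Aligned end to end, the Gstp1 and Gstp2 windows were identical at 78.5% of positions, Gstp1 and Gstp3 at 50.7% and Gstp2 and Gstp3 at 51.9%. RefSeq promoters were matched for 55 of the 63 members and searched on both strands with these and other motifs, chosen with these sequences in view. TGACTCA was in 7 of the 55 and in 4.46% of all 32851 promoters of this length. The core of the antioxidant response element, TGACNNNGC, was in 3 of 55 (Gsta3, Gstm5 and Gstm7) and in 10.2% of all promoters, and TGACNNNGC can overlap TGACTCA. The STAT motif TTCNNNGAA was in 4 of 55 and 7.02% of all, and the nuclear receptor half-site AGGTCA in 11 of 55 and 14% of all. A longer palindrome for HNF1 was in 0 of 55 and in 0.00913% of all. A match describes the letters and shows no binding.

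In the theta class, which acts on small halogenated compounds among others, Gstt1 and Gstt3 were lower and Gstt2 higher under IF. Gstt1 had a lowest, median and highest level of 349, 423 and 555 CPM in AL livers and 173, 205 and 251 CPM in IF livers, with a log2 fold change of -1.14 (SE 0.13, adjusted p = 1.27e-07). No IF liver reached the lowest AL liver. Gstt2 had 87.6, 129 and 167 CPM under AL and 226, 266 and 345 CPM under IF, with a log2 fold change of 0.93 (SE 0.15, adjusted p = 1.46e-05). For Gstt2 every IF liver was above every AL liver. Gstt3 fell with a log2 fold change of -0.70 (SE 0.14, adjusted p = 0.000223). The zeta-class gene Gstz1, an isomerase of tyrosine breakdown, was not called by edgeR at -0.20 (SE 0.09, adjusted p = 0.0904), and was called in 2 of 8 settings. The kappa gene Gstk1 and the omega gene Gsto1 were not called either, with log2 fold changes of 0.15 and 0.26.

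**Figure D2:**
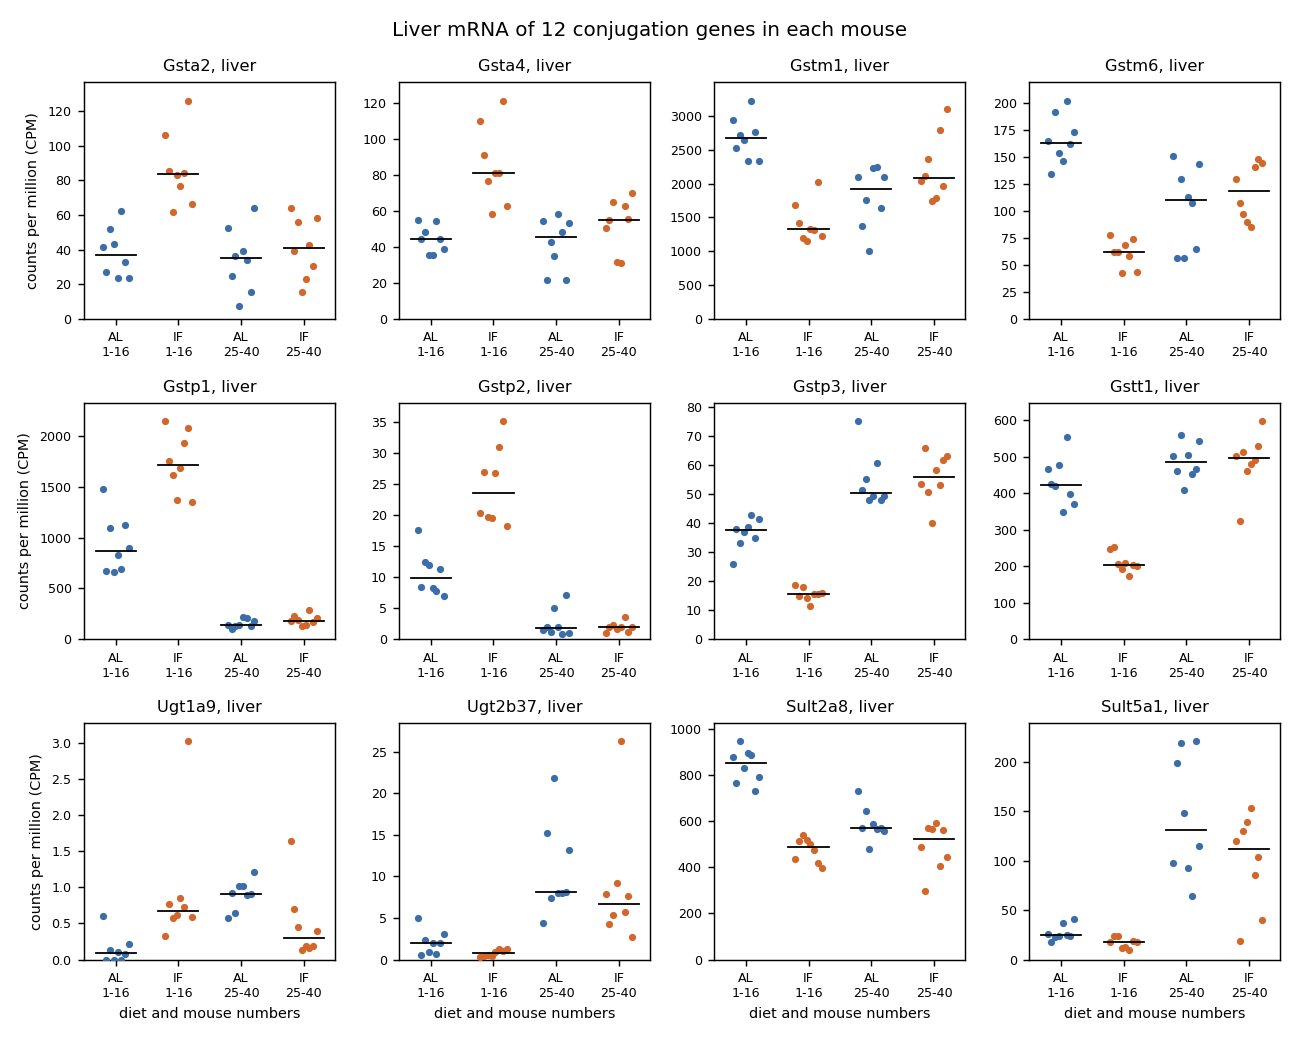
Level in CPM of 12 members in each liver, for AL and IF mice of both cohorts, with 1 point per mouse and a black bar at the median; each axis is linear. In mice 1-16 the IF points of Gstm1, Gstm6, Gstp3, Gstt1 and Sult2a8 lie under all AL points and those of Gsta4 and Gstp2 above them.

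Among the sulfotransferases, the bile acid enzyme Sult2a8 (ENSMUSG00000030378, chr7:14144611-14180694) had the largest share of counts. It had a lowest, median and highest level of 731, 853 and 944 CPM in AL livers and 395, 487 and 538 CPM in IF livers. Its log2 fold change was -0.92 (SE 0.11, adjusted p = 1.67e-07), and the groups did not overlap. Sult1d1 had 63.5, 116 and 138 CPM under AL and 61.4, 74.4 and 96.6 CPM under IF, and it fell with a log2 fold change of -0.66 (SE 0.12, adjusted p = 0.000121). Its AL group included 1 mouse, mouse 7, within the IF range. Sult5a1 had 17.5, 24.7 and 41.2 CPM under AL and 9.32, 17.7 and 23.98 CPM under IF, with a log2 fold change of -0.78 (SE 0.20, adjusted p = 0.00386) and overlapping groups. The phenol sulfotransferase Sult1a1 went the other way, from 174, 190.0 and 269.5 CPM under AL to 245, 272 and 370.1 CPM under IF. It rose with a log2 fold change of 0.36 (SE 0.12, adjusted p = 0.0159), and the groups overlapped. Sult1c2, at 0.887 to 3.18 CPM (median 1.82) under AL, rose with a log2 fold change of 0.88 (SE 0.28, adjusted p = 0.0118).

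Among the glucuronosyltransferases the UGT2B genes of chromosome 5 were split between some that were not called and some that fell. Ugt2b5 had 610.1, 685 and 838 CPM under AL and 629.8, 816 and 961 CPM under IF, and it was not called at 0.11 (SE 0.13, adjusted p = 0.513). Ugt2b36 and Ugt2b1 were not called either, with log2 fold changes of 0.11 (SE 0.10, adjusted p = 0.421) and -0.27 (SE 0.15, adjusted p = 0.148). Ugt2b34 had 289, 347 and 399 CPM under AL and 181, 239 and 291 CPM under IF. It fell with a log2 fold change of -0.66 (SE 0.11, adjusted p = 2.48e-05), with the highest IF liver just inside the AL range. Ugt2b35 fell by less, with a log2 fold change of -0.40 (SE 0.15, adjusted p = 0.0283), kept in 6 of 8 settings. Ugt2b37, at a low level, had 0.580, 2.02 and 5.02 CPM under AL and 0.328, 0.775 and 1.31 CPM under IF, with a log2 fold change of -1.52 (SE 0.43, adjusted p = 0.00568) and overlapping groups.

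In the Ugt1a locus low counts and shared exons limit the values of single genes. There 3 genes were called higher, against 23.5% of all genes tested. Ugt1a1, the enzyme that glucuronidates bilirubin, had 1.30, 2.30 and 3.56 CPM under AL and 3.10, 5.24 and 8.93 CPM under IF. Its log2 fold change was 1.29 (SE 0.25, adjusted p = 0.00017), and the groups overlapped at their edges. Ugt1a6b, of a subfamily that glucuronidates phenols, had 0.222, 0.418 and 1.33 CPM under AL and 1.32, 1.87 and 2.54 CPM under IF, with a log2 fold change of 1.61 (SE 0.38, adjusted p = 0.00127). The Ugt1a6b groups overlapped by the highest AL mouse. Ugt1a9 had 0, 0.0842 and 0.610 CPM under AL and 0.328, 0.669 and 3.02 CPM under IF, with a log2 fold change of 2.56 (SE 0.73, adjusted p = 0.00607). Its fold rests on very low AL levels, the groups overlapped, and 1 mouse stood apart in each group. Ugt1a6a was not called at -0.35 (SE 0.19, adjusted p = 0.135). The Ugt1a genes as a sum were 20.7 ± 5.45 CPM (SD, n = 8) under AL and 24.2 ± 6.11 CPM (SD, n = 8) under IF, which differ by less than 1 SD.

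Several marker lists differed between the same IF and AL livers. The 5 erythrocyte genes summed to 362 to 956 CPM (median 569) under AL and 667 to 6879 CPM (median 2070.4) under IF; Hba-a1, the most abundant, averaged 342 and 1184 CPM. The 5 pericentral hepatocyte genes, which mark the cells around the central vein, summed to 2739 to 5590.4 CPM (median 4017) and 8068 to 12574 CPM (median 10836). Most of these sums came from Cyp2e1 alone, which averaged 2763 and 8660.5 CPM of mean sums of 4151 and 10592 CPM. The 5 liver endothelium genes summed to 111 to 153 CPM (median 127) and 173 to 354 CPM (median 194), led by Stab2 at 70.3 and 126 CPM. In each of these lists all 5 genes were in the table and none was at 0. Periportal genes summed to 809 to 1678 CPM (median 1174) and 1654 to 2579 CPM (median 2053), led by Pck1, which fasting itself is known to raise. Hepatocyte genes, led by Alb, summed to 49598 to 78028 CPM (median 55480) and 42252 to 64183 CPM (median 52362). Stellate cell and fibroblast genes summed to 86.4 to 148 CPM (median 115) and 121 to 202 CPM (median 161), and Kupffer cell and macrophage genes to 142 to 263 CPM (median 163) and 156 to 595 CPM (median 211). The part of RNA from these cells other than erythrocytes in the differences above was not tested.

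For erythrocyte RNA a fit with the mean log2 of CPM plus 1 over the 5 genes as a covariate gives values. It called 16 members, all among the 26, with 6 higher and 10 lower, while over the whole table it called 3948 of 18761 genes tested, where the fit without the covariate called 7234 of 16204. The filter keeps more genes with a covariate, so these fits differ in the genes tested as well. Gstm1 then had a log2 fold change of -1.16, Gstp1 0.86, Gstt1 -1.16 and Sult2a8 -0.73. Of the 10 members no longer called, 5 kept a log2 fold change about as large as without the covariate or larger: Gstm2 at -0.57, Sult1a1 at 0.40, Sult1c2 at 1.06, Ugt2b35 at -0.40 and Ugt2b37 at -1.55. In the other 5 it was smaller: Gsta1 at 0.59, Gsta2 at 0.86, Gsta3 at 0.43, Sult5a1 at -0.50 and Ugt1a9 at 2.21. Gsta2 was at an adjusted p of 0.0701 in that fit, where all its settings ran from 6.34e-06 to 0.0701. Sult5a1 was at 0.262, over a range of 0.00054 to 0.262. All 10 kept their sign.

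The donor molecules and partners of these enzymes were followed as lists of genes, described by counts and by the median log2 fold change; over all genes tested that median was 0.06, with 23.5% higher and 21.1% lower. Supply of UDP-glucuronate had 5 genes tested, 1 higher and 3 lower, median -0.51. Ugdh, which makes UDP-glucuronate, had 109.9 to 188 CPM (median 168) under AL and 79.8 to 107 CPM (median 97.8) under IF, with a log2 fold change of -0.78 (SE 0.12, adjusted p = 1.51e-05). Slc35d1, which carries UDP-glucuronate into the endoplasmic reticulum where UGTs work, fell without overlap, from 112 to 169 CPM (median 133) to 55.5 to 72.4 CPM (median 62.6), a log2 fold change of -1.19 (SE 0.10, adjusted p = 1.10e-09). Slc35a3, a nucleotide sugar carrier, fell at -0.51 (SE 0.10, adjusted p = 0.000208), and Gusb, the lysosomal enzyme that removes glucuronic acid, rose at 0.87 (SE 0.10, adjusted p = 1.62e-07). For PAPS supply and sulfatases 11 of 12 listed genes were in the table and 10 were tested, 1 higher and 4 lower, median -0.06. Papss1, a PAPS synthase, fell without overlap from 12.9 to 25.5 CPM (median 15.6) to 3.23 to 6.07 CPM (median 4.60), a log2 fold change of -1.88 (SE 0.15, adjusted p = 6.77e-10), while the second synthase, Papss2, was not called at 0.03 (SE 0.13, adjusted p = 0.889). The sulfate carrier Slc26a1 fell at -0.80 (SE 0.10, adjusted p = 1.07e-06).

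Of 12 genes tested for glutathione synthesis and recycling, 4 were higher and 6 lower, median -0.19, against 23.5% higher and 21.1% lower over all genes. Gclc, the catalytic subunit of the rate-limiting ligase, had 252 to 534 CPM (median 405) under AL and 139.9 to 375 CPM (median 206) under IF, with a log2 fold change of -0.96 (SE 0.16, adjusted p = 3.19e-05). Cbs and Cth, which make cysteine from homocysteine, fell at -1.04 (SE 0.11, adjusted p = 3.03e-08) and -0.95 (SE 0.14, adjusted p = 5.85e-06). Ggct, which cleaves gamma-glutamyl amino acids, and Chac2, which degrades glutathione in the cytosol, fell with log2 fold changes of -0.98 and -1.45. Chac1, of the same kind as Chac2, rose from 0.614 to 4.05 CPM (median 1.93) to 1.14 to 12.8 CPM (median 6.12), with an adjusted p of 0.00866 and overlapping groups. Oplah, which recycles oxoproline to glutamate, rose at 1.39 (SE 0.12, adjusted p = 1.72e-09), and Ggt5, a cell-surface enzyme that cleaves glutathione conjugates, rose at 1.24 (SE 0.18, adjusted p = 3.52e-06). Of 10 GST relatives outside the symbol rule, 1 was higher and 4 lower, median -0.12. They include Mgst1, the microsomal GST, at 2972 to 4776 CPM (median 3454) under AL and 1912 to 2708 CPM (median 2579.9) under IF with a log2 fold change of -0.65 (SE 0.13, adjusted p = 0.000269). Mgst3 fell at -0.87 (SE 0.16, adjusted p = 8.21e-05), Gstcd at -1.49 (SE 0.34, adjusted p = 0.000982) and Ptges, a prostaglandin E synthase, at -3.77 (SE 0.53, adjusted p = 7.44e-06), while the translation factor gene Eef1g rose with a log2 fold change of 0.68.

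Other conjugating enzymes were split, with 5 of 15 higher and 5 lower, median 0.04, beside the same 23.5% and 21.1% of all genes. Nat8, which acetylates the cysteine conjugates that glutathione conjugates become, rose without overlap from 22.3 to 46.6 CPM (median 26.6) to 69.5 to 117 CPM (median 88.04), a log2 fold change of 1.54 (SE 0.15, adjusted p = 1.67e-08). The epoxide hydrolases Ephx1 and Ephx2 rose at 0.73 (SE 0.13, adjusted p = 8.28e-05) and 0.78 (SE 0.10, adjusted p = 1.45e-06), the glycine conjugating enzyme Glyat at 0.74 (SE 0.13, adjusted p = 5.47e-05) and the amine methyltransferase Inmt at 0.64 (SE 0.14, adjusted p = 0.000799). Thiopurine methyltransferase, Tpmt, fell without overlap from 48.8 to 66.2 CPM (median 55.4) to 18.8 to 30.8 CPM (median 25.2), a log2 fold change of -1.22 (SE 0.12, adjusted p = 1.61e-08). The arylamine acetyltransferases Nat1 and Nat2 fell with log2 fold changes of -1.17 and -1.19.

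Among 20 genes listed as regulators of conjugation genes, 7 were higher (23.5% over all genes) and 2 lower (21.1%), median 0.02. The list, here and below, also includes Por, which is an enzyme and not a regulator and is among the 7. Por, the reductase that feeds electrons to cytochrome P450 enzymes, rose without overlap from 85.5 to 163 CPM (median 126) to 870.4 to 1283 CPM (median 986), a log2 fold change of 2.94 (SE 0.16, adjusted p = 1.19e-12). The drug-sensing receptors Nr1i2 (PXR) and Nr1i3 (CAR) rose at 0.99 (SE 0.15, adjusted p = 7.77e-06) and 1.08 (SE 0.28, adjusted p = 0.00528). The fatty acid receptor gene Ppara rose at 1.24 (SE 0.16, adjusted p = 8.67e-07) and Rxra, the common partner of these receptors, at 0.98 (SE 0.10, adjusted p = 2.59e-08). Cux2 rose at 1.09 (SE 0.36, adjusted p = 0.0164) from low levels, and Stat5a fell at -0.65 (SE 0.15, adjusted p = 0.00144). Nfe2l2 (NRF2), the regulator of many GST genes, was not called at -0.02 (SE 0.14, adjusted p = 0.907). Of 13 pumps and carriers for conjugates, 9 were higher and 1 lower, median 0.43, against 23.5% and 21.1% of all genes. Abcb1a, a drug efflux pump, rose without overlap from 0.421 to 1.26 CPM (median 0.620) to 3.05 to 4.88 CPM (median 3.67), a log2 fold change of 2.30 (SE 0.23, adjusted p = 2.42e-08). Abcc3, which exports glucuronides to blood, rose at 0.61 (SE 0.16, adjusted p = 0.00311), and Abcc1, Abcc4 and Abcc5 rose with log2 fold changes of 1.10, 0.91 and 0.94. Abcc2, the pump that sends conjugates into bile, fell at -0.65 (SE 0.11, adjusted p = 4.47e-05).

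In the liver of mice 25-40 no member was called: edgeR called 0 of 47 tested, against 0% of the 15938 genes tested, with 0 members at an unadjusted p under 0.05, against 5.77%. DESeq2 called 0 members as well, and 8 genes of the whole table. Gstm1 had a lowest, median and highest level of 996, 1926 and 2242 CPM under AL and 1739.9, 2079 and 3102 CPM under IF, with a log2 fold change of 0.35 (SE 0.18, adjusted p = 0.85). The groups overlapped. Gstp3 had 48.1, 50.3 and 75.3 CPM under AL and 39.9, 55.9 and 66.1 CPM under IF, and Gstt1 409, 485 and 558 CPM and 323, 496 and 598 CPM. For Sult2a8 the levels were 479, 569.8 and 728 CPM and 299, 523 and 589 CPM. All these pairs of groups overlapped, as did all but 0.0188% of the genes tested, and none of the genes of the 7 lists was called in this cohort.

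Whether the response differs between the cohorts was tested directly, as the log2 response in mice 25-40 minus that in mice 1-16. Of 50 members tested, 14 differed, against 23.7% of the 17658 genes tested. In 9 of them, against 12.8% of all genes, the difference was positive: these fell in mice 1-16. Gstm7 gave 1.49 (SE 0.22, adjusted p = 3.49e-06), Gstp3 1.43 (SE 0.17, adjusted p = 1.31e-07) and Gstt1 1.21 (SE 0.19, adjusted p = 7.48e-06). Gstm6 and Gstm1 followed with 1.80 (SE 0.29, adjusted p = 1.74e-05) and 1.39 (SE 0.23, adjusted p = 2.49e-05). Gstm4, Gstt3, Sult2a8 and Ugt2b34 had differences of 0.92, 0.70, 0.73 and 0.68. In 5 the difference was negative, against 10.9% of all genes, all of which rose in mice 1-16: Gstp2 at -1.42 (SE 0.46, adjusted p = 0.0218), Gstt2 at -0.85 (SE 0.23, adjusted p = 0.00543), Sult1c2 at an adjusted p of 0.0198, Ugt1a1 at -1.46 (SE 0.35, adjusted p = 0.00199) and Ugt1a9 at -3.38 (SE 0.88, adjusted p = 0.00434). Gstp1, called in mice 1-16 alone, did not differ beyond the threshold at -0.46 (SE 0.26, adjusted p = 0.215), nor did Gsta4 at -0.46 (SE 0.30, adjusted p = 0.297).

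The AL livers of the cohorts also differed in all 3 families. Of 46 members tested, 31 were called between AL mice 25-40 and AL mice 1-16, against 22.3% of the 16090 genes tested. Of the 31, 19 were higher in mice 25-40, against 10.9%, and 12 lower, against 11.4%. A fold of at least 2 was reached by 19, against 6.88% of all genes. The 46, the 31 and both counts of 19 include 6 Sult genes with at most 2 counts in AL mice 1-16. These passed the filter only through the group where they are high, so that their direction was set by the filter. Without them 13 remain of each 19, and the 31 of 46 cannot be read against the 22.3%. These mice differ in cohort and labelled sex at once.

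In the Sult2a cluster on chromosome 7, whose enzymes sulfate steroids and bile acids, and in the Sult3a pair on chromosome 10, 7 genes were all but absent from the AL livers of mice 1-16 and present in those of mice 25-40. Sult2a1 (ENSMUSG00000078798, chr7:13530171-13571334) had no count in the 8 AL livers of mice 1-16 and a lowest, median and highest level of 102, 168 and 385 CPM in AL mice 25-40, with 61968 counts in all. It was at least 19360-fold higher, taking as floor 3 counts over the group (0.0106 CPM). Sult3a1, also without a count in AL mice 1-16, had 53.02, 81.2 and 123 CPM in AL mice 25-40, at least 7731-fold higher. Sult2a2 had 2 counts in AL mice 1-16 and 60423 in AL mice 25-40, where it had 104, 179.8 and 321 CPM. That is a ratio of 28310, with a 95% exact counting interval of 7838 to 233800; intervals and floors cover counting error only. Sult2a3 was at least 986-fold higher, Sult3a2 at least 730.4-fold, Sult2a5 at least 495.5-fold and Sult2a4 at least 117-fold. As these genes had at most 2 counts in AL mice 1-16, the lack of overlap with AL mice 25-40 is no separate result.

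Other members differed by less but plainly. Over all genes tested, 5.8% had groups that did not overlap. Sult2a7 had 0.268, 0.864 and 1.41 CPM in AL mice 1-16 and 5.98, 18.02 and 40.4 CPM in AL mice 25-40, with a log2 fold change of 4.43 (SE 0.47, adjusted p = 3.23e-06) and no overlap. Sult1c2 and Sult5a1 were higher in mice 25-40, with log2 fold changes of 2.34 (SE 0.23, adjusted p = 1.03e-07) and 2.23 (SE 0.26, adjusted p = 3.32e-06). Sult2a8, the one gene of its cluster with high levels in both cohorts, was lower in mice 25-40 at -0.69 (SE 0.12, adjusted p = 0.00013). In the opposite direction, Ugt2b38 had 2.26, 7.72 and 15.5 CPM in AL mice 1-16 and 0.121, 0.443 and 0.942 CPM in AL mice 25-40, with a log2 fold change of -4.28 (SE 0.41, adjusted p = 1.81e-07) and no overlap. Gstp1 had 657, 866 and 1478 CPM in AL mice 1-16 and 103, 140.1 and 215 CPM in AL mice 25-40. It was lower with a log2 fold change of -2.75 (SE 0.20, adjusted p = 5.49e-10), and no mouse overlapped. Gstp2 and Gsta1 were lower as well, with log2 fold changes of -2.26 (SE 0.39, adjusted p = 0.000428) and -2.55 (SE 0.42, adjusted p = 0.000154), whereas Gstp3 was higher at 0.41 (SE 0.12, adjusted p = 0.0184). Gstt2, Sult1a1, Ugt1a1 and Ugt1a9, which rose with IF in mice 1-16, were higher in AL mice 25-40, with log2 fold changes of 1.30, 0.94, 1.21 and 2.44. Gstm1, Gstm6, Gstm7 and Ugt2b1 were lower, at -0.75, -0.86, -0.73 and -1.37.

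Some list genes also separated the AL cohorts. Cux2, a transcription factor known to be higher in female mouse liver, had 0.290 to 1.52 CPM (median 0.879) in AL mice 1-16 and 33.1 to 155 CPM (median 103) in AL mice 25-40, with a log2 fold change of 6.73 (SE 0.40, adjusted p = 1.99e-09). The repressor gene Bcl6 was lower in mice 25-40 at -2.57 (SE 0.35, adjusted p = 6.21e-05). Nat8 was lower at -4.36 (SE 0.24, adjusted p = 1.30e-11) and the uptake carrier gene Slco1a1 at -4.41 (SE 0.46, adjusted p = 4.42e-06). Gclc was lower at -1.44 (SE 0.15, adjusted p = 1.33e-07), and the PAPS synthases moved apart, with Papss1 at -1.38 (SE 0.15, adjusted p = 2.61e-07) and Papss2 at 1.62 (SE 0.18, adjusted p = 5.87e-07). Over all genes 10.9% were higher and 11.4% lower in mice 25-40. By list, 8 of 20 regulators were higher and 1 lower, 5 of 13 pumps higher and 3 lower, and 3 of 15 other conjugating enzymes higher and 4 lower. PAPS supply had 2 of 10 higher and 2 lower, glutathione synthesis 2 of 11 higher and 3 lower, GST relatives 2 of 10 higher and 4 lower, and UDP-glucuronate supply 0 of 5 higher and 2 lower.

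In the muscle of mice 1-16, 19 members were tested and 5 called, against 23% of the 15025 genes tested. Of these, 4 were higher, against 11.5% of all genes, and 1 lower, against 11.6%. A fold of at least 2 was reached by 3 members, Gsta3, Gstt2 and Sult1a1, against 2.66% of all genes (1.86% higher, 0.792% lower). Sult1a1 had a lowest, median and highest level of 10.9, 12.5 and 16.01 CPM under AL and 24.2, 32.9 and 45.2 CPM under IF, with a log2 fold change of 1.29 (SE 0.11, adjusted p = 2.39e-07). Gstt2 had 3.26, 3.70 and 5.04 CPM under AL and 5.33, 11.2 and 22.9 CPM under IF, with a log2 fold change of 1.56 (SE 0.22, adjusted p = 8.84e-05). Both genes were higher in every IF muscle than in any AL muscle; over all genes 4.17% did not overlap. Gsta3 gave 1.08 (SE 0.38, adjusted p = 0.0467) at 0.925 and 2.19 CPM (medians), Gstz1 0.40 (SE 0.14, adjusted p = 0.0428), and Gstm7, the member that fell, -0.63 (SE 0.18, adjusted p = 0.012). These 3 overlapped between the diets.

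The 4 adipocyte genes, led by Fabp4 at 236 and 878 CPM and none of them at 0, summed to 143 to 503 CPM (median 248) in AL muscle and 332 to 2486 CPM (median 972) in IF muscle of mice 1-16. With their mean log2 of CPM plus 1 as a covariate, an alternative chosen after seeing the data, Sult1a1 had a log2 fold change of 1.34 (adjusted p = 3.23e-05) and Gstt2 0.70 (adjusted p = 0.0229). Gsta3 then had -0.06 and Gstz1 -0.13, neither called, with adjusted p of 0.938 and 0.491, while Gstm7 had -0.81 (adjusted p = 0.0343). Over all settings the adjusted p of Sult1a1 ran from 4.63e-25 to 3.23e-05 and that of Gstt2 from 2.75e-13 to 0.0229. For Gsta3 it ran from 0.0124 to 0.938, for Gstz1 from 0.0138 to 0.491 and for Gstm7 from 0.00527 to 0.0343. The covariate fit called 2895 of 16785 genes tested. Without IF mouse 12, whose muscle held the most adipocyte RNA, 3 members were called, and 3416 of 15128 genes: Gstt2 at 1.37, Sult1a1 at 1.27 and Gstm7 at -0.71.

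In the muscle of mice 25-40, edgeR called 0 of 17 members, against 0.00653% of the 15308 genes tested. An unadjusted p under 0.05 was reached by 2 members, against 10.7% of all genes. DESeq2 called 0 members, and 85 of the 32913 genes it tested. Sult1a1 had 14.1, 18.6 and 22.1 CPM under AL and 9.41, 15.9 and 27.3 CPM under IF, with a log2 fold change of -0.15 (SE 0.16, adjusted p = 0.776). For Gstt2 the levels were 5.70, 8.06 and 10.96 CPM and 4.65, 6.35 and 8.50 CPM, with -0.24 (SE 0.12, adjusted p = 0.494). Both overlapped between the diets, as did all but 0.0915% of the genes tested. The response of 2 of 22 members tested differed between the cohorts, against 14.2% of the 16346 genes tested, and both differences were negative, against 6.77% of all genes: Gstt2 at -1.78 (SE 0.25, adjusted p = 1.75e-05) and Sult1a1 at -1.42 (SE 0.21, adjusted p = 2.87e-05). Among the lists, muscle of mice 1-16 had Gclc higher at 0.51 (SE 0.09, adjusted p = 0.000252) and Nfe2l2 higher at 0.74 (SE 0.07, adjusted p = 2.61e-07), where liver had Gclc lower. By list, 3 of 11 GST relatives, 1 of 5 UDP-glucuronate genes, 2 of 8 pumps and carriers, 4 of 12 other conjugating enzymes and 1 of 9 PAPS genes were higher in that muscle and none lower, against 11.5% higher and 11.6% lower over all genes. Of 10 glutathione genes 3 were higher and 1 lower, and of 14 regulators 5 were higher and 1 lower. In muscle and cortex of mice 25-40 no list gene was called.

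In the cortex of mice 1-16, 3 of 20 members were called, against 7.21% of the 18462 genes tested, all higher under IF, against 3.79% higher and 3.43% lower over all genes. None reached a fold of 2, against 0.482% of all genes (0.32% higher). Sult1a1 had a lowest, median and highest level of 5.53, 6.87 and 8.99 CPM in 7 AL cortices and 7.38, 13.2 and 17.7 CPM in 8 IF cortices, with a log2 fold change of 0.85 (SE 0.16, adjusted p = 0.00492). Gstt2 had 2.62, 3.09 and 4.38 CPM under AL and 4.20, 4.96 and 5.92 CPM under IF, with 0.62 (SE 0.12, adjusted p = 0.00816). Sult4a1 had 584, 666 and 706 CPM and 704, 788 and 849 CPM, with 0.25 (SE 0.06, adjusted p = 0.02). All 3 overlapped between the diets at the edges of the groups; over all genes 1.01% did not. Sult1a1 was the one member called with the library of AL mouse 1 put back, at 0.81 (adjusted p = 0.0144). That fit called 294 of 18332 genes tested. Without mice 2 and 10, 498 of 18503 genes were called. Sult1a1 and Gstt2 were among them, while Sult4a1 was not, at 0.23 (adjusted p = 0.0646). Over all genes 3.79% were higher and 3.43% lower in cortex. Of the lists, 3 of 10 pumps and carriers were higher in cortex and none lower, 1 of 13 glutathione genes was higher and 1 lower, 1 of 13 regulators was higher, and 1 of 5 UDP-glucuronate genes was lower. The other lists had no gene called there.

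The 4 oligodendrocyte genes, led by Mbp at 3276 and 4892 CPM and none at 0, summed to 3652 to 5693 CPM (median 4468) in AL cortex and 4943 to 8125 CPM (median 6528) in IF cortex of mice 1-16. With their mean log2 of CPM plus 1 as a covariate, chosen after seeing the data, edgeR called none of the members and 1 of 19401 genes tested. Sult1a1 then had a log2 fold change of 0.53 (adjusted p = 0.681), Gstt2 0.45 (adjusted p = 0.677) and Sult4a1 0.30 (adjusted p = 0.588). These are the highest adjusted p over all settings; the lowest were 1.21e-05 for Sult1a1, 0.00018 for Gstt2 and 0.00126 for Sult4a1, all from DESeq2. In the cortex of mice 25-40, edgeR called 0 of 22 members, against 0.0109% of the 18403 genes tested. An unadjusted p under 0.05 was reached by 2 members, against 11.2% of all genes. DESeq2 called 0 members, and 61 of the 35703 genes it tested. Groups without overlap made up 0.0435% of the genes there. The response differed between the cohorts in 0 of 23 members by edgeR, the tool used for this test, against 2.03% of the 19547 genes tested, with 4 at an unadjusted p under 0.05, against 15.4%. Sult1a1 gave -0.72 (SE 0.22, adjusted p = 0.0845) there.

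**Figure D3:**
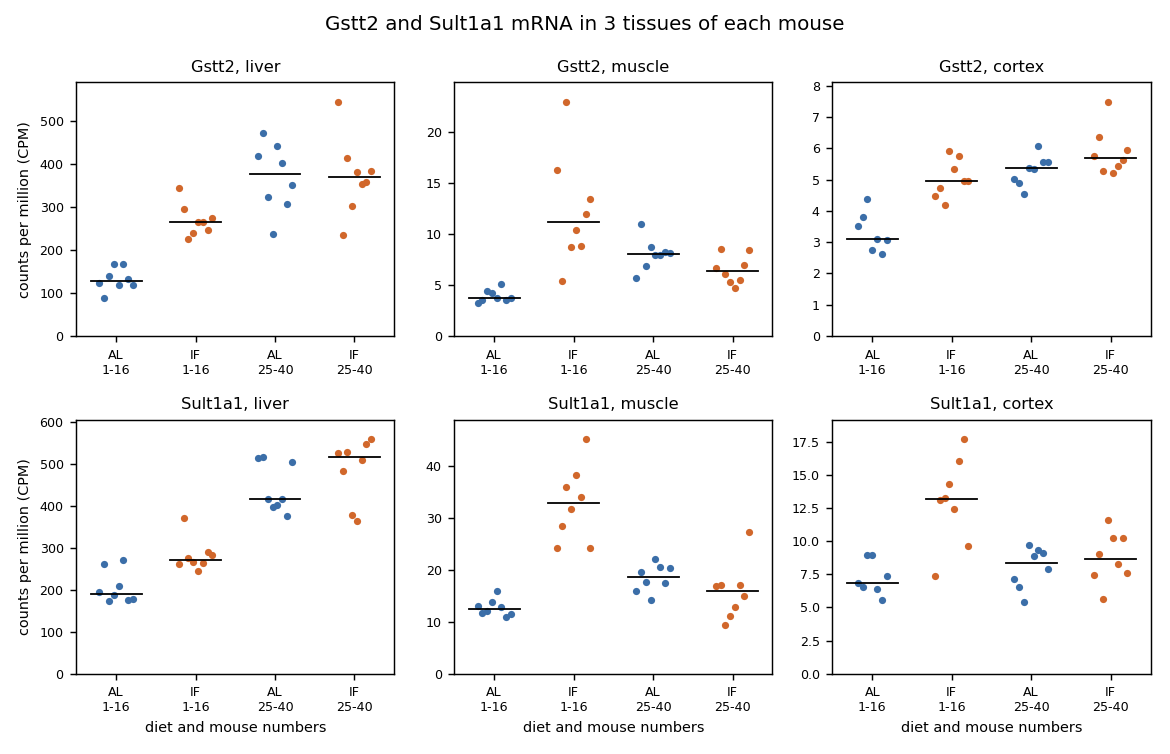
Level in CPM of Gstt2 and Sult1a1 in each mouse, in liver, muscle and cortex, for AL and IF mice of both cohorts, with 1 point per mouse and a black bar at the median. In mice 1-16 the IF median lies above the AL median in every tissue for both genes.

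Gstt2 and Sult1a1 were thus the members called higher in all 3 tissues of mice 1-16. Whether the response differs between tissues was tested with the mouse as a block, as the log2 response in muscle or cortex minus that in liver. For muscle 13 of 49 members differed, against 26.7% of the 24688 genes tested, 10 of them positive, against 13.6%, and 3 negative, against 13%. For cortex 11 of 49 differed, against 22.8%, with 7 positive, against 11.2%, and 4 negative, against 11.6%. The positive differences were mostly genes that fell in liver: Gstt1 had 1.56 (SE 0.18, adjusted p = 2.90e-08) in muscle and 1.12 (SE 0.18, adjusted p = 1.64e-05) in cortex. Gstm1 had 1.16 (SE 0.16, adjusted p = 9.64e-07) in muscle and 0.87 (SE 0.17, adjusted p = 0.000171) in cortex. Gstm7 had 0.82 (SE 0.20, adjusted p = 0.00204) and 1.59 (SE 0.19, adjusted p = 9.22e-08), and Gstm6 1.94 (SE 0.38, adjusted p = 0.000192) and 1.64 (SE 0.28, adjusted p = 3.61e-05). Gstm6 levels in muscle were low, with medians of 0.393 and 0.506 CPM.

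The rise of Sult1a1 was larger in muscle than in liver, by 0.95 (SE 0.16, adjusted p = 2.38e-05), and larger in cortex by 0.49 (SE 0.17, adjusted p = 0.0303). The response of Gstp1 was lower in muscle, with a difference of -0.74 (SE 0.19, adjusted p = 0.00364), and in cortex, with -0.90 (SE 0.20, adjusted p = 0.000866). Gsta4 likewise had differences of -0.81 in muscle and -1.08 in cortex. Gstp2, at 17.4 to 22.1 CPM (median 20.4) in AL muscle, differed by -1.37 (SE 0.47, adjusted p = 0.027) there. In cortex its counts were few in all but a pair of AL mice, with 0.169, 0.268 and 4.29 CPM under AL, and the difference from liver was -2.75. Gsta2 in cortex had 51 counts under AL and 14 under IF, and AL mouse 3 alone stood at 0.856 CPM against an AL median of 0.0881. Its difference of -2.76 rests on few counts, many of them from that mouse. Gstp3 in muscle had 7 counts under AL and 55 under IF, and its difference of 4.11 rests on few counts too. Ugt1a6a in muscle had 1 count under AL and 12 under IF, a ratio of 12.3 with a 95% exact counting interval of 1.82 to 525. In mice 25-40 edgeR, the tool used here, called 0 of 55 members for muscle minus liver, against 0.00428% of the 23371 genes tested, and 0 of 55 for cortex minus liver, against 0%. The unadjusted p was under 0.05 for 3 and 4 members, and for 1784 and 2166 genes of the table.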

How the data were processed

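The authors deposited raw counts per gene, made by them with HISAT2 2.0.5 and featureCounts 1.5.0-p3; the strand setting and the handling of reads shared between genes are not stated. CPM is the count divided by the total of its library, with no other scaling. Fits used edgeR 4.0.16 (limma 3.58.1, R 4.3.3): TMM factors, filterByExpr with its defaults (10 counts, 15 in all), a robust quasi-likelihood fit and two-sided F tests, adjusted by Benjamini and Hochberg over all genes tested. Each tissue and cohort was fitted alone; differences between cohorts came from interaction terms, as did those between tissues, with the mouse as a block by the mouse numbers of the labels. The cortex library of AL mouse 1 was left out, so 95 of 96 count columns were used. Code was tested on simulated data before use. Alternatives were RLE size factors, other filters, DESeq2 1.42.0, a block for the replicate number, a 2-fold limit, unadjusted p, leaving out mice and marker levels as covariates.

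Members and lists were chosen with earlier results of these data known. Named members are those called with a log2 fold change of at least 1 in liver, the 3 highest per family and tissue by CPM per kb, those called in muscle or cortex in both cohorts (0), the 8 with the smallest adjusted p between cohorts, the 8 with the largest difference between AL cohorts and those called in opposite directions in the cohorts (0), 34 in all. List genes were named if called in liver of mice 1-16 with a log2 fold change of at least 0.5, 40 in all. Others are named where a count of few genes is spelled out, and were chosen after their values were seen. Promoters are from RefSeq, transcripts from GENCODE vM39, figures from matplotlib 3.10.9 under Python 3.11.15.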

Additional observations from a re-analysis of the deposited data

Results flagged for a closer look

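In 15 of 183 groups of 7 or 8 mice, 1 mouse lay apart from the rest by the gap test of Dixon, which by chance picks out about 1 in 20 groups. In liver these were Gstp3 in AL mouse 25 at 75.3 CPM, Sult1a1 in IF mouse 11 at 370.1 CPM, Sult1d1 in AL mouse 7 at 63.5 CPM and Sult2b1 in AL mouse 31 at 1.34 CPM. Ugt1a9 stood apart in AL mouse 1 at 0.610 CPM, IF mouse 16 at 3.02 CPM and IF mouse 33 at 1.64 CPM. Other UGT values apart in liver were Ugt2b1 in IF mouse 9 at 177 CPM, Ugt2b36 in IF mouse 34 at 345 CPM and Ugt2b37 in IF mouse 37 at 26.2 CPM. In muscle they were Gsta3 in IF mouse 34 at 1.81 CPM and Sult1a1 in IF mouse 40 at 27.3 CPM. In cortex Gstm1 at 284 CPM and Gstm5 at 215 CPM were both apart in IF mouse 12, and Sult2b1 in AL mouse 5 at 11.99 CPM.

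Responses to diet that differed between the cohorts, by the test of that difference, are given for the named genes in liver and for all members in muscle, as the log2 response in mice 25-40 minus that in mice 1-16. In liver the differences were 1.39 for Gstm1, 1.80 for Gstm6, 1.49 for Gstm7, 1.43 for Gstp3 and 1.21 for Gstt1. Sult2a8 differed by 0.73 and Ugt2b34 by 0.68. Negative differences were -1.42 for Gstp2, -1.46 for Ugt1a1 and -3.38 for Ugt1a9. Gstm4, Gstt2, Gstt3 and Sult1c2 also differed in liver but are not among the named genes. In muscle the differences were -1.42 for Sult1a1 and -1.78 for Gstt2.

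Between tissues of mice 1-16, and among the named genes, the log2 response in muscle minus that in liver differed for Gstm1 (1.16), Gstm6 (1.94), Gstm7 (0.82), Gstt1 (1.56) and Sult1a1 (0.95). Gstp1 differed by -0.74 and Gstp2 by -1.37. On few muscle counts, Gstp3 differed by 4.11 and Ugt1a6a by 3.24, fitted values that depend on the prior count. The response in cortex minus that in liver differed for Gstm1 (0.87), Gstm6 (1.64), Gstm7 (1.59), Gstt1 (1.12) and Sult1a1 (0.49). It was -0.90 for Gstp1. On few cortex counts it was -2.76 for Gsta2, with AL mouse 3 far above the rest, and -2.75 for Gstp2, with AL mice 2 and 4 far above the rest. Outside the data used, the cortex library of AL mouse 1, labelled male, held 10219 counts of Xist.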

How the results depend on the processing

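Over the alternatives run, 72 counts of called members stayed within 1.5 times the reported count, or at 0 where that count was 0, and 16 moved. The 72 include counts of 0 in mice 25-40, where almost no gene of the table was called, so those say little about stability. The log2 fold change changed sign under the adipocyte covariate for Gsta3 (1.08 to -0.06) and Gstz1 (0.40 to -0.13) in muscle, both called in the reported fit. In liver it changed sign in at least 1 setting for Sult1b1, Ugt1a6a and Ugt2a3, none of them called in the reported fit. Gsto2, Sult2b1 and Ugt1a7c, not tested in every setting and never called, took both signs there. In cortex of mice 1-16, Gstm7 went from 0.16 to -0.04 with the oligodendrocyte covariate and was called in neither fit. With a 2-fold limit added, the counts were 11 in liver of mice 1-16 (14.7% of all genes), 3 in muscle (2.66%), 0 in cortex (0.482%), 8 for the liver difference between cohorts (10.4%), 19 between AL cohorts (6.88%), and 6 each for muscle minus liver (12%) and cortex minus liver (9.73%). At an unadjusted p under 0.05 they were 6 in cortex of mice 1-16, against 23.8% of all genes, and 2 each in muscle and cortex of mice 25-40, against 10.7% and 11.2%. The 19 between AL cohorts include 6 Sult genes whose direction the filter set. With the replicate block, 1 member, Sult1a1, was called in cortex of mice 1-16, and 389 of 21626 genes tested. Gstt2 at 0.63 (adjusted p = 0.0635) and Sult4a1 at 0.24 (adjusted p = 0.0817) lost the call with folds about as large. For the cortex difference between cohorts the block fit called 1 member, and 423 of 20689 genes. Mice of the same replicate number correlated above 0.1 in at most 4 of 8 pairs in any comparison, so the block is an alternative only. The erythrocyte covariate gave 16 in liver, and the cortex library of AL mouse 1, put back, gave 1. Chosen after seeing the data were the oligodendrocyte covariate (0 in cortex), the adipocyte covariate, leaving out IF mouse 12 (3 in muscle) and leaving out IF mice 9 and 10 in liver. Fits with a block or a covariate also let more genes through the filter. Fewer samples, fewer degrees of freedom or a stricter limit are built into these settings; other causes were not tested. Of the log2 fold changes of named genes in liver, taken over both cohorts, 359 stayed on their side of the threshold. Those of mice 25-40, where no member was called, could hardly do otherwise. A change of sign with no call in either fit was counted as staying. In mice 1-16, 5 lost the call, all with the erythrocyte covariate (Gsta2 0.86, Sult1a1 0.40, Sult5a1 -0.50, Ugt1a9 2.21 and Ugt2b37 -1.55), and 1 gained it, Ugt1a6a with the replicate block (-0.37). Depth limits Ugt1a6b and Ugt1a9, with AL medians under 1 CPM in liver of mice 1-16.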

Other observations

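Genes of the circadian clock, which also drive daily rhythms of drug metabolism in liver, were picked here after their values were seen. In the liver of mice 1-16, Per1 had 2.64 to 8.29 CPM (median 5.72) under AL and 46.9 to 203 CPM (median 136) under IF, and Usp2 had 1.62 to 4.60 CPM (median 2.60) and 69.2 to 110.1 CPM (median 85.6). Arntl, a core clock gene, had 12.99 to 26.5 CPM (median 20.5) under AL and 2.85 to 7.18 CPM (median 5.92) under IF. Dbp, an output gene of the clock, had 1.33 to 27.3 CPM (median 6.12) under AL and a median of 25.4 CPM under IF, where the lowest mouse had 20.7 CPM, so the groups overlapped. Per2 had 15.4 to 40.03 CPM (median 26.3) under AL and 43.4 to 135 CPM (median 65.96) under IF, and Nr1d1 had 45.2 to 132 CPM (median 72.2) and 8.20 to 30.3 CPM (median 19.4). In the liver of mice 25-40, Dbp had 193 to 297 CPM (median 226) under AL and 194 to 312 CPM (median 249) under IF, and Arntl had 0.654 to 1.95 CPM (median 1.05) and 0.150 to 1.54 CPM (median 0.472). Between the AL groups of the cohorts, Arntl, Dbp, Per1 and Usp2 did not overlap, and Per2 and Nr1d1 did. The part of these differences in those of the conjugation genes was not tested.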
